A study of Homo sapiens with 60 samples.

Results

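Serine and one-carbon metabolism genes are described here as 8 genes fixed by their symbols: PHGDH, PSAT1, PSPH, SHMT1, SHMT2, MTHFD2, MTHFD1L and ALDH1L2. Each matched 1 row of a table of 60675 genes, and all 8 had enough counts to be tested. The libraries are RNA-seq of the human colorectal adenocarcinoma line HT29, treated for 24 h with an extract of a digestive herbal medicine or with vehicle. The question put to each extract was how it changed gene expression and whether the change grew with dose. Water extracts of 2 multi-herb formulas were used, Sayeok-tang with n = 3 and Bojungikgi-tang with n = 2 at each dose. Extracts made with 70% ethanol, with n = 3 at each dose, came from Scutellariae Radix (skullcap root), Pinelliae Tuber, dried ginger (Zingiberis Rhizoma) and fresh ginger (Zingiberis Rhizoma Recens). The ethanol extracts of Coptidis Rhizoma (goldthread rhizome) and Zizyphi Fructus (jujube fruit) had 1 library per dose. Low, medium and high doses were 20, 100 and 500 µg/mL, but 12.8, 64 and 320 µg/mL for Coptidis Rhizoma. Vehicle (n = 3) was labelled 0.1% DMSO. No DMSO percentage is recorded for the extract libraries, water extracts included, so whether solvent matched vehicle is not known. All groups are the same cell line in culture, and nothing in the labels tells whether replicates came from separate cultures. The p-values therefore reflect only how much these libraries vary, which may be technical.

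The serine synthesis pathway turns a glycolytic intermediate into serine in consecutive steps run by PHGDH, PSAT1 and PSPH. Serine hydroxymethyltransferases, SHMT1 in the cytosol and SHMT2 in mitochondria, then split serine into glycine and a carbon unit carried on folate, and MTHFD2, MTHFD1L and ALDH1L2 process that unit inside mitochondria. The units feed purine, thymidylate and methionine synthesis, and many proliferating tumour cells draw on them. Several of these genes are textbook targets of ATF4, the transcription factor of the integrated stress response, which is translated when amino acids are short or protein synthesis is stressed.

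The 60 libraries held 18016461 to 35819919 counts. Levels are CPM, the count scaled to a common library total, and ALDH1L2 rested on 7 to 24 counts in the vehicle libraries. Of 10 colon epithelium markers all had counts in every library, with EPCAM at 303 to 790 CPM. CDX1, CDX2 and CEACAM5 were low, with medians of 1.12, 5.55 and 5.8 CPM. Of 8 markers of other cell types, PTPRC, CD3E and COL1A2 had a median of 0, while CD14 reached 5.45 CPM. CD14, PECAM1 and COL1A1 had counts in every library, with medians of 3.33, 1.8 and 1.34 CPM, above that of CDX1. In bulk libraries fewer cells of a type and less RNA per cell cannot be told apart. The titles of all 60 libraries carry the same batch name, BatchC. In the codes of the labels, however, vehicle forms a set of its own. The water extracts share another, as do the gingers, Pinelliae Tuber with Scutellariae Radix, and Coptidis Rhizoma with Zizyphi Fructus. A difference from vehicle and a difference between code sets therefore cannot be told apart, whereas comparisons of doses and of paired extracts stay inside a set. Libraries that stand apart are vehicle replicate 1 (7.2% of counts in ribosomal protein genes), Scutellariae Radix low-dose replicate 3 (9.35%) and Pinelliae Tuber high-dose replicate 2 (14.31% of counts in mitochondrial genes). Many results of the 8 genes are also given without these 3, but not every one that changed. Results of the other gene lists are given with all libraries only.

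Positions are on GRCh38 with the gene models of GENCODE 29, and SHMT2 and ALDH1L2 share chromosome 12. PHGDH spans chr1:119648411-119744226, PSAT1 chr9:78297143-78330093 and PSPH chr7:56011051-56051604. SHMT1 spans chr17:18327860-18363563 and SHMT2 chr12:57229327-57234935. MTHFD2 spans chr2:74198562-74217565, MTHFD1L chr6:150865549-151101887 and ALDH1L2 chr12:105019784-105084577. Annotated pseudogene copies of PSAT1, PSPH, SHMT1 and MTHFD2 held at most 10 counts in any library, the highest being PSAT1P3. SHMT1, SHMT2, MTHFD2, MTHFD1L and ALDH1L2 overlap genes on the opposite strand. Whether counting used strand was not stated, so reads of these overlaps may be shared.

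Promoter sequence is shown for the gene that moved most (PSAT1), for MTHFD2, which moved with it, and for SHMT1, which moved the other way. RefSeq promoter windows (GRCh38.p14, 250 bases before to 50 after a start) were found for 5 of the 8 genes: MTHFD1L, MTHFD2, PHGDH, PSAT1 and SHMT1. The PSAT1, MTHFD2 and SHMT1 stretches end before the annotated gene, and the MTHFD1L stretch lies inside it, upstream of a later start. Capitals mark the CCAAT box (CCAAT, or ATTGG on the other strand), which was searched for after the sequences had been seen. In the MTHFD1L line the capitals mark a match to TGATGNAA (TTNCATCA on the other strand), the composite element of C/EBP and ATF factors.
PSAT1 at chr9:78296875-78297124, plus strand: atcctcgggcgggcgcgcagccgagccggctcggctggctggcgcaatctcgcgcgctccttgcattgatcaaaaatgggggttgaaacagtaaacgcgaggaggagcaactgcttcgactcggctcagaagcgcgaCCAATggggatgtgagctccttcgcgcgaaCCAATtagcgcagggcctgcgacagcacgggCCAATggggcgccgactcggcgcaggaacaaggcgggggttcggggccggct
MTHFD2 at chr2:74198365-74198561, plus strand: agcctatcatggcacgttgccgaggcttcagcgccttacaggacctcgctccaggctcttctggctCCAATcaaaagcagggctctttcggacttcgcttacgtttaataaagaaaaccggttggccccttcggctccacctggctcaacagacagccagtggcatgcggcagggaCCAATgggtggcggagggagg
SHMT1 at chr17:18363564-18363800, minus strand: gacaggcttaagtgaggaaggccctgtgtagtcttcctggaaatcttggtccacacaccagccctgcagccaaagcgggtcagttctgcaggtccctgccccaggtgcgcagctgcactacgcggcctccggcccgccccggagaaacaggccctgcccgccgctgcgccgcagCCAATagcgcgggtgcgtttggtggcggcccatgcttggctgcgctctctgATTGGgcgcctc
MTHFD1L at chr6:150866346-150866375, plus strand: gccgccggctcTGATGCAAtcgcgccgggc

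A CCAAT box was in 7 of the 8 windows of these 5 genes, at least 1 window of each, and in 34.6% of the 35116 windows of all genes. The MTHFD1L windows overlap and share the same box. As the box was picked from these sequences, its count is no fair contrast with that share. TGATGNAA was in 3 of the 8 windows, all of MTHFD1L and sharing the single match at chr6:150866357-150866364, and in 3.62% of all windows. The NRF2-type element TGACNNNGC (GCNNNGTCA on the other strand) was in 1 of the 8 windows and in 13.3% of all windows. That window was of MTHFD2, with the match on the other strand just after the start. No sequence shown holds a CCAAT box together with either element, so overlap cannot be read from them. A match describes letters in a window and is no evidence of binding.

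In vehicle the genes differed widely in level. Per kilobase of the principal transcript, SHMT2 stood highest with 90.1 CPM per kb, followed by PSAT1 with 46.4, MTHFD2 with 33.5, SHMT1 with 27.1 and PSPH with 20.6. PHGDH had 14.8 ± 1.51 CPM per kb and MTHFD1L 12.5 ± 0.856 (SD, n = 3), and the vehicle libraries of these neighbours overlapped. ALDH1L2, a mitochondrial enzyme that releases the folate-bound unit as carbon dioxide, was near the limit of detection with 0.329 to 0.67 CPM in the vehicle libraries. Across all 60 libraries PSAT1 spanned 58.1 to 665 CPM, 11.4-fold, and MTHFD2 spanned 67.4 to 519 CPM, 7.69-fold. SHMT1 had the narrowest range, 35.9 to 79.4 CPM. The plot of levels by library shows all 8 genes.

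**Figure D1:**
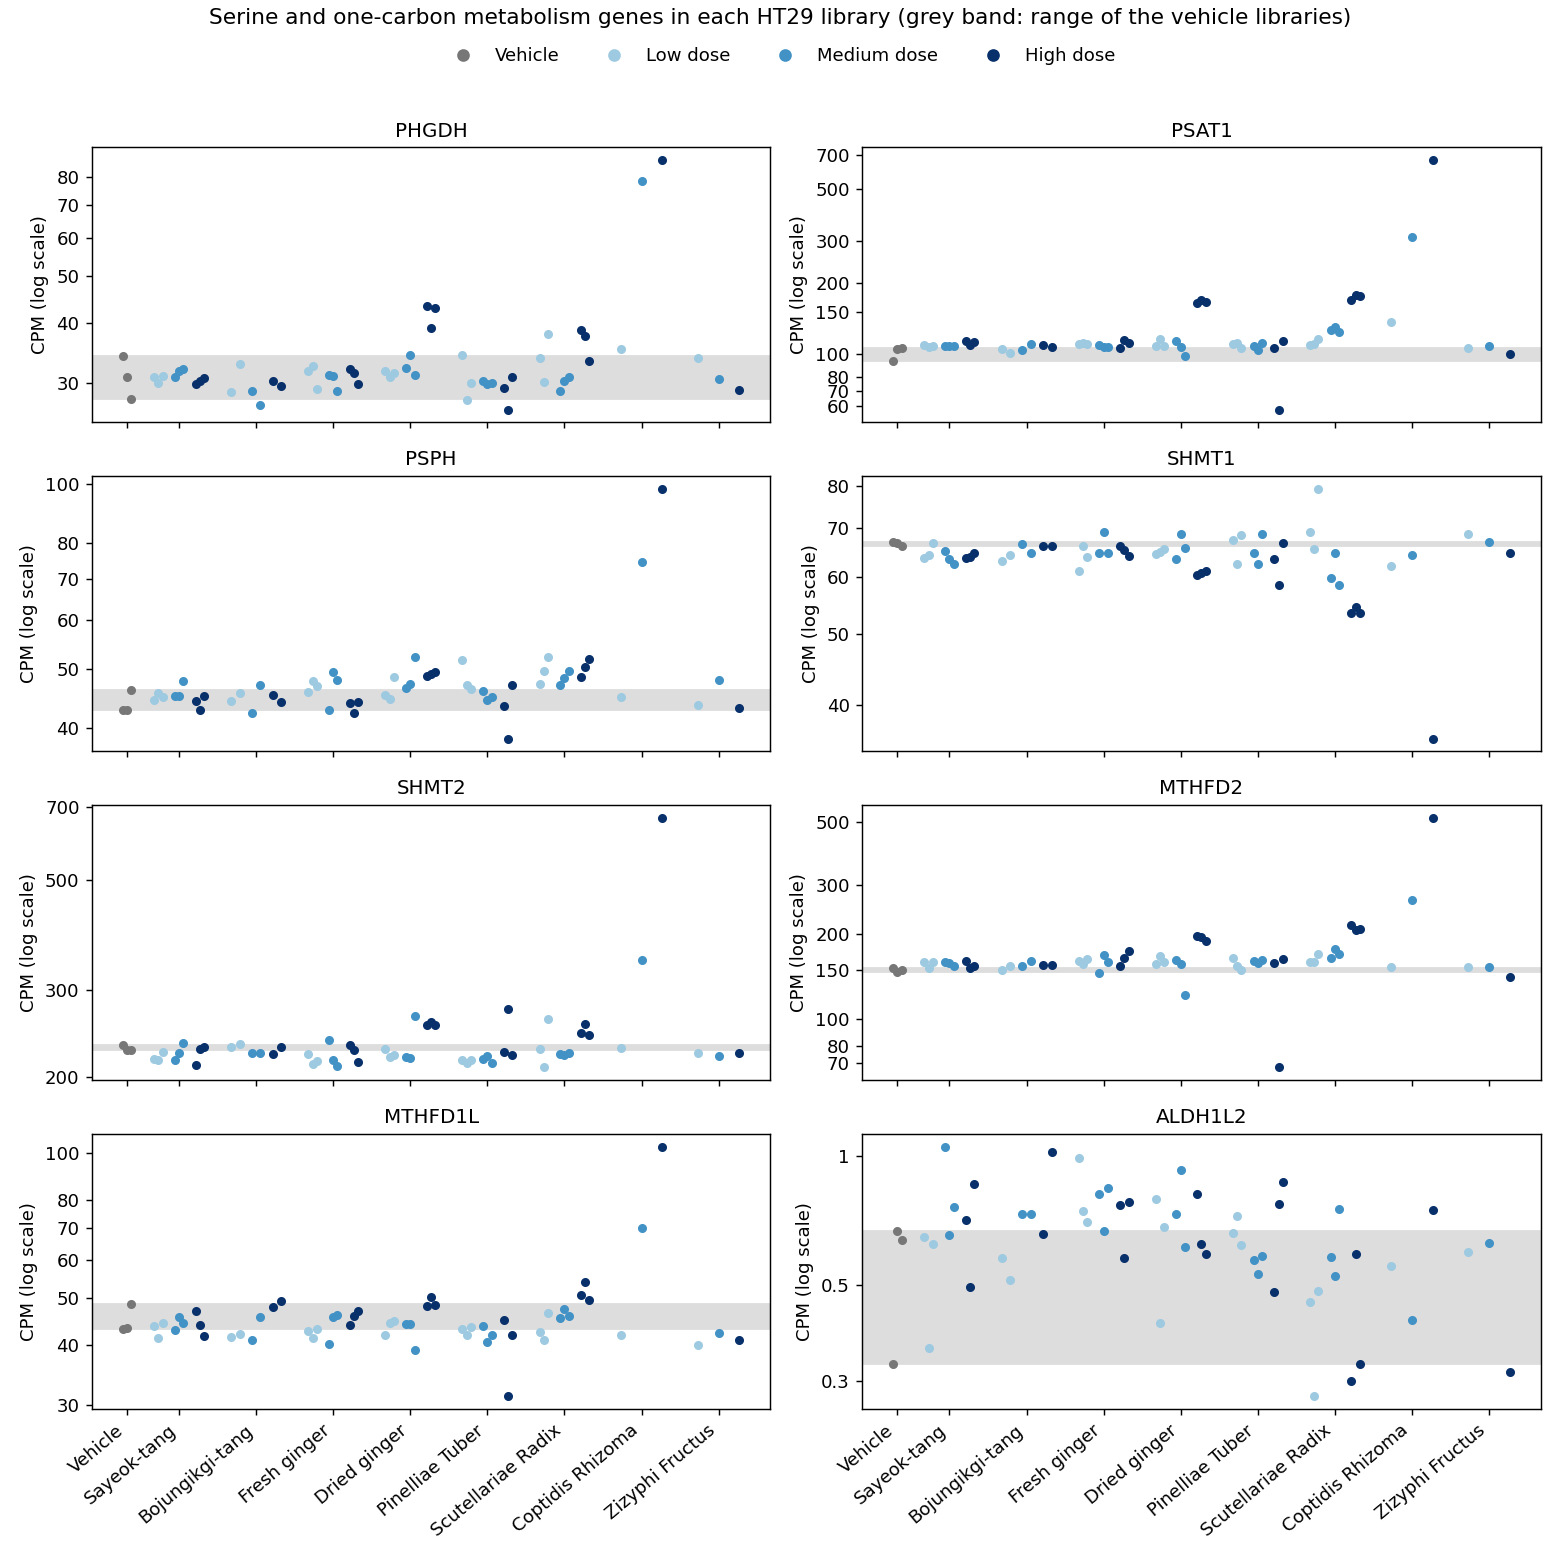
Each point is 1 library, each panel 1 gene, the y axis is CPM on a log scale, and the x axis gives vehicle and the 8 extracts with doses from low to high. PSAT1 reached 665 CPM in the Coptidis Rhizoma high-dose library and 169 to 177 CPM with Scutellariae Radix high dose, above the vehicle range of 93.3 to 106 CPM drawn as a grey band.

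The largest values of the series for 6 of the 8 genes came from Coptidis Rhizoma, and they grew with dose. PSAT1, the transaminase of the second step of serine synthesis, had 137, 314 and 665 CPM at 12.8, 64 and 320 µg/mL, against 93.3, 105 and 106 CPM in vehicle. PHGDH, the first and committing enzyme, had 35.2, 78.8 and 87.0 CPM at these doses, against 27.8 to 34.1 CPM in vehicle. PSPH, the phosphatase of the last step, had 45.0, 74.5 and 98.1 CPM, against 42.8 to 46.1 CPM in vehicle. PSAT1 thus lay above every vehicle library at each dose, while PSPH at the low dose lay within the vehicle range and PHGDH just above it.

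Of the hydroxymethyltransferases, mitochondrial SHMT2 had 229, 344 and 667 CPM at the rising doses of Coptidis Rhizoma, against 227 to 232 CPM in vehicle. Cytosolic SHMT1 had 62.2, 64.3 and 35.9 CPM, against 66.1 to 67.1 CPM in vehicle. The high dose therefore held the highest SHMT2 and the lowest SHMT1 of the 60 libraries. MTHFD2, the mitochondrial methylenetetrahydrofolate dehydrogenase, had 153, 265 and 519 CPM, against 147 to 152 CPM in vehicle. MTHFD1L, which completes mitochondrial formate production, had 41.9, 70.0 and 103 CPM, against 43.2 to 48.6 CPM in vehicle. Both were at or next to the vehicle range at the low dose and above it at the others.

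These are single libraries and no test of a dose is possible. Their exact 95% Poisson intervals, which cover counting error only, were 655 to 675 CPM for PSAT1 at the high dose, 306 to 322 at the medium and 132 to 143 at the low. For SHMT1 at the high dose the interval was 33.6 to 38.3 CPM. ALDH1L2 rested on 10, 8 and 19 counts, and its intervals (0.266 to 1.02, 0.179 to 0.817 and 0.449 to 1.16 CPM) overlapped the vehicle values.

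On the log2 scale with 0.5 CPM added, PSAT1 differed from the vehicle mean by 0.43, 1.62 and 2.71 at the low, medium and high dose. At the high dose the ratio was 1.79 for MTHFD2, 1.54 for SHMT2, 1.48 for PHGDH, 1.18 for MTHFD1L, 1.15 for PSPH and -0.89 for SHMT1. Past 1 in size were 0, 2 (PHGDH and PSAT1) and 6 of the 8 genes at the rising doses, while 0.597%, 1.38% and 12.3% of 16763 genes passed it. The median over the 8 genes was 0.02, 0.69 and 1.33, against -0.063, 0.063 and 0.04 over all genes. The low-dose library had 15.22% of counts in mitochondrial genes and the high-dose library 3.44%, against 7.62 to 8.86% in vehicle, and the part of this in the ratios was not tested.

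**Figure D2:**
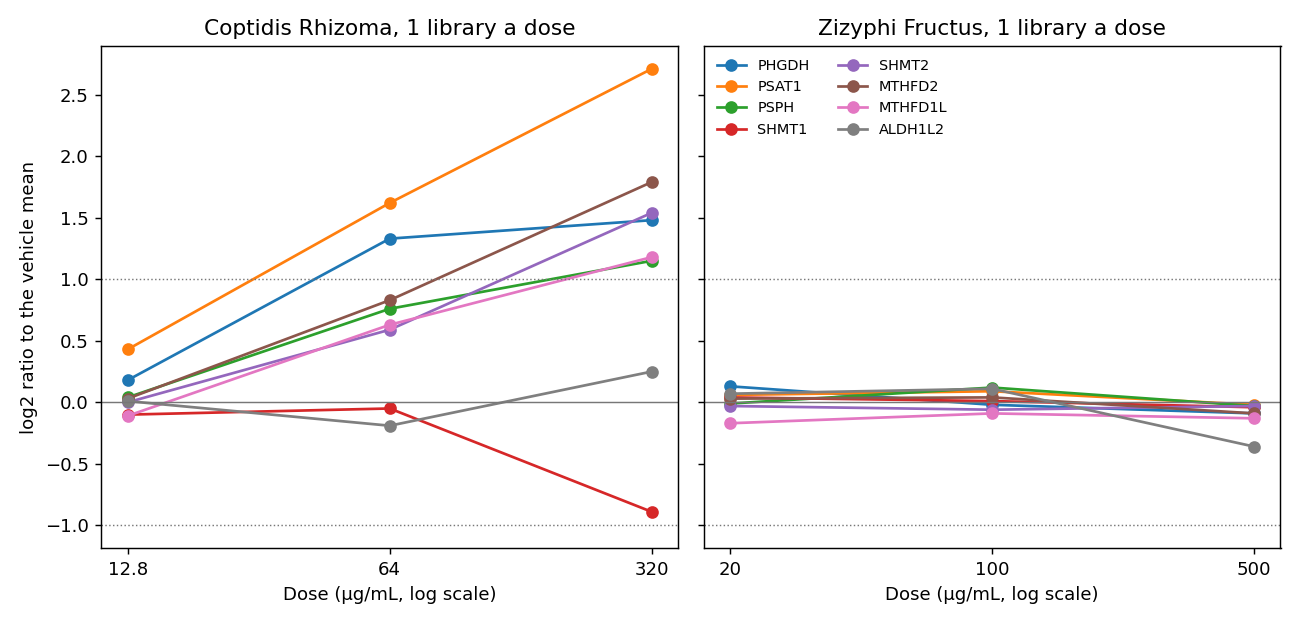
The y axis is the log2 ratio of a single library to the vehicle mean and the x axis the dose on a log scale, for Coptidis Rhizoma on the left and Zizyphi Fructus on the right. Lines are the 8 genes and dotted lines mark 1 and -1. PSAT1 climbs to 2.71 with Coptidis Rhizoma and SHMT1 drops to -0.89, while all Zizyphi Fructus ratios lie between -0.36 and 0.13.

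Taken as 1 group of 3 libraries against vehicle, Coptidis Rhizoma gave no call in edgeR's quasi-likelihood test, in which the spread includes the dose differences. PSAT1 was higher by 1.82 ± 0.47 on the log2 scale (SE, adjusted p = 0.403). An unadjusted p under 0.05 was found for 6 of the 8 genes and for 1859 of 15114 genes. The same fit called 4 of 15114 genes, 0.0265%. DESeq2 called PSAT1 in these libraries. Zizyphi Fructus libraries stayed close to vehicle: PSAT1 had 106, 108 and 100 CPM at 20, 100 and 500 µg/mL. Of the 8 genes 0 passed 1 in size at any of its doses, against 0.376%, 0.424% and 0.549% of all genes. As 1 group against vehicle 0 of the 8 genes were called in edgeR's test and by DESeq2, against 2.78% of 15318 genes. At an unadjusted p under 0.05 stood 1 gene, MTHFD1L (-0.18 ± 0.06, adjusted p = 0.0957), which was called without vehicle replicate 1. Over all genes 4159 of 15318 had such a p.

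Scutellariae Radix at 500 µg/mL changed 6 of the 8 genes against vehicle: 5 rose and 1, SHMT1, fell, where 23.6% of 16763 genes were called. PSAT1 had 169, 177 and 176 CPM, against 93.3, 105 and 106 CPM in vehicle. It was 0.79 ± 0.09 higher on the log2 scale, 1.73-fold (SE, edgeR adjusted p = 2.2e-09). MTHFD2 had 216, 207 and 209 CPM, against 152, 147 and 149 CPM in vehicle, a difference of 0.50 ± 0.12 (adjusted p = 0.00183). SHMT1 had 53.5, 54.5 and 53.5 CPM, against 67.1, 66.9 and 66.1 CPM in vehicle, and fell by 0.30 with an SE of 0.06 (adjusted p = 0.00013). In these 3 genes no treated library overlapped a vehicle library. Libraries can separate at a small difference. PSAT1 was also apart from vehicle, uncalled, with Sayeok-tang low dose (0.04 ± 0.09, edgeR adjusted p = 0.826) and fresh ginger medium dose (0.04 ± 0.09, adjusted p = 0.838). The share of all genes that separate in this way, here and below, was not counted.

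The other rises with Scutellariae Radix high dose were smaller. PSPH had 48.5, 50.3 and 51.8 CPM, against 42.8, 42.8 and 46.1 CPM in vehicle (0.20 ± 0.06, edgeR adjusted p = 0.00804). MTHFD1L had 50.7, 54.1 and 49.5 CPM, against 43.2, 43.4 and 48.6 CPM in vehicle (0.20 ± 0.07, adjusted p = 0.0256). PHGDH had 38.6, 37.5 and 33.3 CPM, against 34.1, 30.9 and 27.8 CPM in vehicle (0.24 ± 0.08, adjusted p = 0.0183). PSPH and MTHFD1L did not overlap vehicle, but PHGDH did. The calls of these 3 genes ended without the filter on low counts, which left 3 calls (PSAT1, MTHFD2 and SHMT1), and when single libraries were left out. PHGDH was at 0.17 without vehicle replicate 3, 0.23 without vehicle replicate 2, and 0.21 and 0.23 without treated replicates 1 and 2. MTHFD1L was at 0.19 and 0.16 without vehicle replicates 1 and 2 and at 0.16 without treated replicate 2. PSPH was at 0.17 without vehicle replicate 2 and also without treated replicate 3. Without the 3 libraries that stand apart these 3 genes stayed called, PHGDH at 0.34 ± 0.07 (edgeR adjusted p = 9.88e-05).

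SHMT2 had 245, 256 and 243 CPM with Scutellariae Radix high dose, against 232, 227 and 227 CPM in vehicle. The libraries did not overlap, yet the difference of 0.13 ± 0.08 missed the threshold (edgeR adjusted p = 0.293). Without the 3 libraries that stand apart its SE was 0.05 and the difference, 0.16, was called (adjusted p = 0.0211), as were the 6 genes above. ALDH1L2 was at 0.3, 0.592 and 0.329 CPM and is too low for a firm value (-0.44 ± 0.31, adjusted p = 0.317). The median log2 fold change of the 8 genes was 0.20, against -0.023 over all genes.

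At the medium dose of Scutellariae Radix only PSAT1 was called, where 9.53% of all genes were. It had 126, 130 and 124 CPM, against 93.3, 105 and 106 CPM in vehicle (0.30 ± 0.09, edgeR adjusted p = 0.019), without overlap. Its call ended without vehicle replicate 1 (0.27) and without medium-dose replicate 1 (0.30) or 2 (0.29), and it was called again, beside MTHFD2, without the 3 libraries that stand apart. At the low dose PSAT1 had 109, 110 and 116 CPM, which is above each vehicle library, and 0 of the 8 genes were called, against 0.382% of all genes. The PSAT1 ranges of the 3 doses did not overlap one another.

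Compared with its own low dose, within 1 code set, Scutellariae Radix high dose raised PSAT1 by 0.66 ± 0.09, MTHFD2 by 0.39 ± 0.12 and MTHFD1L by 0.27 ± 0.07 (edgeR adjusted p = 1.6e-07, 0.0188 and 0.00335), and 22.5% of all genes were called. SHMT1 had 53.5, 54.5 and 53.5 CPM at the high dose, against 69.1, 65.5 and 79.4 CPM at the low dose, and fell by 0.39 with an SE of 0.06 (adjusted p = 2.4e-06). The highest of these, 79.4 CPM, is low-dose replicate 3, which stands apart in ribosomal protein counts, and without the 3 such libraries SHMT1 fell by 0.28. MTHFD2 lost its call without low-dose replicate 1 (0.35). Without the 3 libraries 6 genes were called, with SHMT2 (0.23 ± 0.05, adjusted p = 0.00157) and PHGDH (0.23 ± 0.07, adjusted p = 0.0101) added. With only the libraries compared in the fit, 1 gene, PSAT1, was called, and with a replicate block within code sets 2 were, PSAT1 and SHMT1.

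Dried ginger at 500 µg/mL raised PSAT1, PHGDH and MTHFD2 against vehicle, 3 rises and 0 falls, where 13.1% of all genes were called. PSAT1 had 164, 170 and 166 CPM, against 93.3, 105 and 106 CPM in vehicle (0.69 ± 0.09, edgeR adjusted p = 1.2e-07). PHGDH had 43.3, 38.9 and 42.8 CPM, against 34.1, 30.9 and 27.8 CPM in vehicle (0.41 ± 0.08, adjusted p = 0.00027). MTHFD2 had 197, 195 and 189 CPM, against 152, 147 and 149 CPM in vehicle (0.35 ± 0.12, adjusted p = 0.0467). Dried ginger libraries lay above all vehicle libraries in each of the 3 genes. The MTHFD2 call was marginal: leaving out any of the 3 vehicle or 3 treated libraries ended it, with differences of 0.33 to 0.38. Without the 3 libraries that stand apart MTHFD2 was called at 0.39 ± 0.06 (edgeR adjusted p = 2.36e-06). PHGDH was then at 0.50 ± 0.07 (edgeR adjusted p = 1.08e-07).

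SHMT2 and SHMT1 were not called with dried ginger high dose. SHMT2 had 254, 258 and 254 CPM with dried ginger high dose, against 232, 227 and 227 CPM in vehicle (0.14 ± 0.08, edgeR adjusted p = 0.293). SHMT1 had 60.3, 60.8 and 61.1 CPM, against 67.1, 66.9 and 66.1 CPM in vehicle (-0.16 ± 0.06, adjusted p = 0.0623). No library overlapped between these groups. Both were called without the 3 libraries that stand apart, SHMT2 at 0.17 (adjusted p = 0.019) and SHMT1 at -0.13 (adjusted p = 0.0417), which took the count to 4 rises and 1 fall. With all libraries PSPH (0.14 ± 0.06), MTHFD1L (0.10 ± 0.07) and ALDH1L2 (0.25 ± 0.29) were not called (edgeR adjusted p = 0.112, 0.346 and 0.654). The median of the 8 genes was 0.19, against -0.013 over all genes.

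PSAT1 had 108, 116 and 108 CPM at the low dose and 113, 107 and 97.7 CPM at the medium dose. Neither gave a call among the 8 genes, where 1.99% and 1.06% of all genes were called at the low and medium dose. High against low dose, PSAT1 rose by 0.62 ± 0.09 (edgeR adjusted p = 1.8e-06) and PHGDH by 0.44 ± 0.08 (adjusted p = 9.9e-05), 2 genes in all, where 4.34% of all genes were called. Without the 3 libraries that stand apart, MTHFD2 (0.29 ± 0.05, adjusted p = 8.47e-05), MTHFD1L (0.19 ± 0.05, adjusted p = 0.0112) and SHMT2 (0.22 ± 0.05, adjusted p = 0.00102) were called too.

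**Figure D3:**
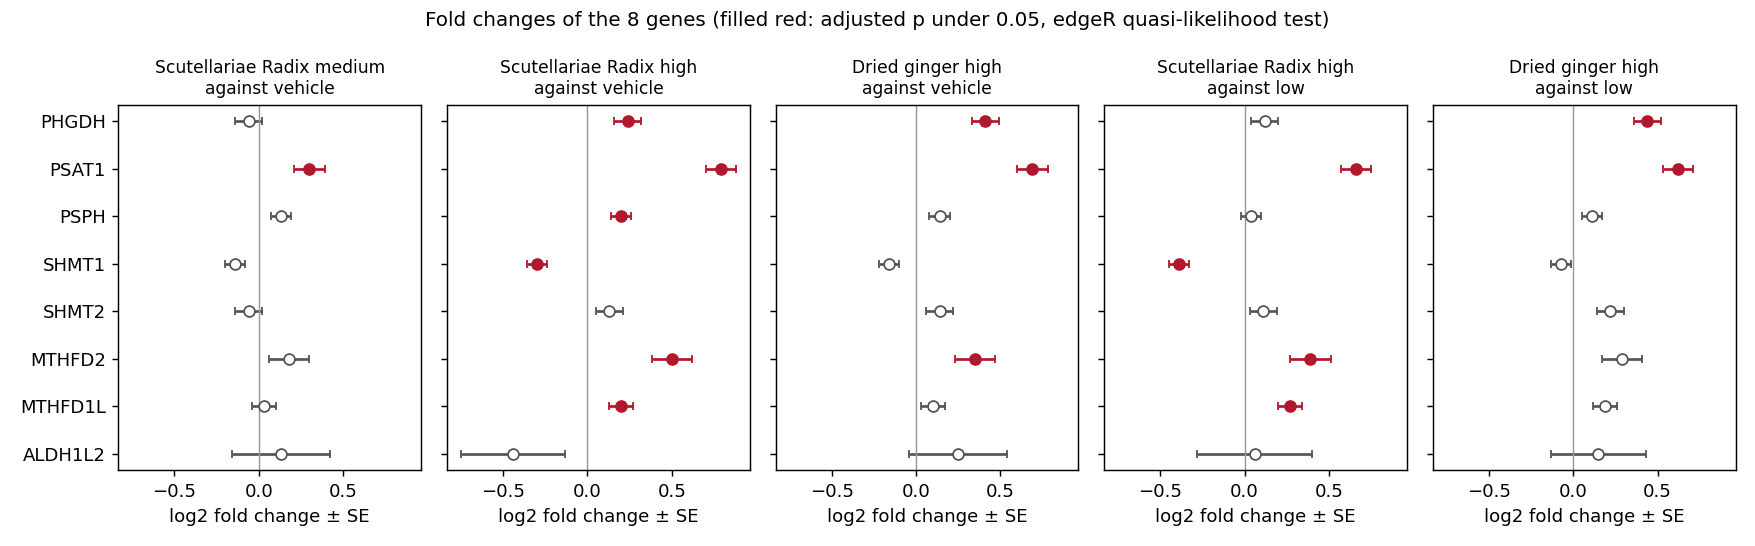
Points are log2 fold changes with their SE for the 8 genes in 5 comparisons, the x axis is the log2 fold change, and filled red points passed an adjusted p of 0.05. PSAT1 is called in each panel, from 0.30 to 0.79, and SHMT1 is below 0 in each, with calls at -0.30 and -0.39 for Scutellariae Radix high dose.

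Fresh ginger, the undried rhizome, differed from dried ginger at the same 500 µg/mL. PSAT1 had 106, 115 and 111 CPM with fresh ginger, against 164, 170 and 166 CPM with dried ginger, a difference of -0.60 ± 0.09 (edgeR adjusted p = 6.7e-06). PHGDH had 32.1, 31.4 and 29.9 CPM with fresh ginger, against 43.3, 38.9 and 42.8 CPM with dried ginger (-0.43 ± 0.08, adjusted p = 0.00032). No library overlapped. These 2 of the 8 genes were called, where 2.26% of all genes were, and MTHFD2, PSPH and SHMT2 were added without the 3 libraries that stand apart. The dose effect itself, high minus low, was smaller in fresh than in dried ginger for PSAT1 (-0.60 ± 0.12, adjusted p = 0.00546), the 1 gene called of the 8, where 0.644% of all genes were called. PHGDH was just short of the threshold there (-0.43 ± 0.11, adjusted p = 0.0531) and was called without the 3 libraries (adjusted p = 0.00142).

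Scutellariae Radix and Pinelliae Tuber at 500 µg/mL differed in 6 of the 8 genes, where 22.8% of all genes were called. PSAT1 had 169, 177 and 176 CPM with Scutellariae Radix, against 106, 58.1 and 113 CPM with Pinelliae Tuber (0.91 ± 0.09, edgeR adjusted p = 5.1e-11). MTHFD2 had 216, 207 and 209 CPM with Scutellariae Radix, against 158, 67.4 and 163 CPM with Pinelliae Tuber (0.71 ± 0.12, adjusted p = 2.6e-05). The second Pinelliae Tuber library, which stands apart in mitochondrial counts, was far below its fellows in both genes. Without the 3 such libraries the differences were 0.70 ± 0.04 for PSAT1 and 0.43 ± 0.06 for MTHFD2, both called. PHGDH (0.32), MTHFD1L (0.37) and PSPH (0.21) also rose and SHMT1 (-0.24) fell, and they were called with and without those libraries. SHMT2 was at 0.01 (adjusted p = 0.927) and, without those libraries, at 0.19 ± 0.05 (edgeR adjusted p = 0.00845), which made 7 called genes. With only the libraries compared in the fit 0 of the 8 genes were called, and with a replicate block within code sets 3 were (MTHFD1L, MTHFD2 and PSAT1).

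The dose effect differed between these extracts in 4 of the 8 genes, where 9.58% of all genes were called. It was larger with Scutellariae Radix for PSAT1 (0.85 ± 0.12, edgeR adjusted p = 2.9e-06), MTHFD2 (0.62 ± 0.17, adjusted p = 0.0168) and MTHFD1L (0.33 ± 0.10, adjusted p = 0.0208), and lower for SHMT1 (-0.38 ± 0.08, adjusted p = 0.00166). Without the 3 libraries the values were 0.70, 0.41, 0.32 and -0.25, all called. PHGDH, called in neither fit, was at 0.15 with all libraries and at 0.27 without the 3. With only the libraries compared in the fit 0 of the 8 genes were called, and with a replicate block within code sets 1 was, PSAT1. MTHFD1L lost its call without Pinelliae Tuber high-dose replicate 2 (0.24) or low-dose replicate 3 (0.32), and without Scutellariae Radix high-dose replicate 2 (0.30) or low-dose replicate 2 (0.28).

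In all, 15 of the 18 replicated groups against vehicle gave 0 calls in 120 values of the 8 genes in edgeR's test and 0 by DESeq2. Of the 120 values 4 had an unadjusted p under 0.05. Over all 16763 genes, from 1983 (Bojungikgi-tang high dose) to 3975 (fresh ginger high dose) had one in each of these groups. The Scutellariae Radix low dose gave 1 call, PSPH, without its replicate 1. The groups share the vehicle libraries with the comparisons above. Of all genes, 3.1%, 2.16% and 6.36% were called with fresh ginger at the low, medium and high dose. With Sayeok-tang 3.3%, 0.793% and 2.85% were called, and with Bojungikgi-tang 0.424%, 1.49% and 0.626%. With Pinelliae Tuber the shares were 0.549%, 2.11% and 5.12%. In the high-dose groups PSAT1 had 106 to 115 CPM with fresh ginger, 109 to 113 with Sayeok-tang and 107 to 109 with Bojungikgi-tang, and MTHFD2 had 154 to 174, 152 to 161 and 156. The PSAT1 values are at or just above the highest vehicle library.

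In Pinelliae Tuber high dose, replicates 1 and 3 had 106 and 113 CPM of PSAT1 and 158 and 163 CPM of MTHFD2, and replicate 2 had 58.1 and 67.4 CPM. Without replicate 1, 1 gene (MTHFD1L) was called as lower than vehicle, and without replicate 3 PSAT1 and MTHFD2 were. Without replicate 2 it was 0. With the 3 libraries that stand apart left out, MTHFD2 was at 0.11 and PSAT1 at 0.05 against vehicle, where they were at -0.20 and -0.12 in all libraries. A like dip in MTHFD2, to 122 CPM beside 162 and 157, was seen in dried ginger medium-dose replicate 3, where SHMT2 was at 265 CPM beside 219 and 218. That library had 7.24% of counts in mitochondrial genes, beside 6.88% and 7.23% in its fellows, and 6.27% in ribosomal protein genes, beside 5.6% and 5.77%. Whether RNA quality has a part in these dips was not tested.

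High against low dose, 0 of the 8 genes were called with fresh ginger (0.489% of all genes), Pinelliae Tuber (1.78%), Sayeok-tang (0.382%) or Bojungikgi-tang (0.0656%), by edgeR or DESeq2. At an unadjusted p under 0.05 stood MTHFD1L with Bojungikgi-tang (0.22 ± 0.08), and PSAT1 (-0.19 ± 0.09) and SHMT2 (0.24 ± 0.08) with Pinelliae Tuber. Over all 16763 genes 565 had such a p with Bojungikgi-tang and 3327 with Pinelliae Tuber. When the 3 libraries that stand apart were left out, the Pinelliae Tuber values were 0.01 for PSAT1 and 0.05 for SHMT2, and MTHFD2 was at 0.04, against -0.23 with them. The Pinelliae Tuber comparison gave 3 calls (MTHFD2, PSAT1 and SHMT2) when Pinelliae Tuber high-dose replicate 1 or 3 was left out, and 0 without replicate 2. Sayeok-tang against Bojungikgi-tang gave no detectable difference at the high dose (0 of 8 genes by either tool, 0 at an unadjusted p under 0.05, 0.00597% of all genes) or in their dose effects (0 of 8 by either tool, 0 at an unadjusted p under 0.05, 0.0% of all genes). Over all 16763 genes an unadjusted p under 0.05 was found for 409 at the high dose and 295 in the dose effects. The PSAT1 difference at the high dose was 0.04 ± 0.10, and a missed threshold does not show that the formulas act alike.

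The balance of the mitochondrial and cytosolic hydroxymethyltransferases can be read within each library as the ratio of SHMT2 to SHMT1 counts. It was 3.68, 5.36 and 18.6 in the Coptidis Rhizoma libraries from low to high dose, against 3.40 to 3.46 in vehicle. It was 4.55 to 4.70 with Scutellariae Radix high dose and 4.15 to 4.24 with dried ginger high dose, above all vehicle libraries. The vehicle range is narrow, and other groups passed it above or below. Bojungikgi-tang low dose had 3.62 to 3.65, Sayeok-tang medium dose 3.32 to 3.75 and Pinelliae Tuber low dose 3.15 to 3.41. Medium doses of Scutellariae Radix and dried ginger had 3.41 to 3.82 and 3.17 to 4.04. Fresh ginger high dose (3.33 to 3.52) and Zizyphi Fructus (3.26 to 3.46) stayed around vehicle. Pinelliae Tuber high dose spanned 3.30 to 4.70, its highest value being replicate 2. A ratio shows that the genes changed unequally and not which of them did.

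**Figure D4:**
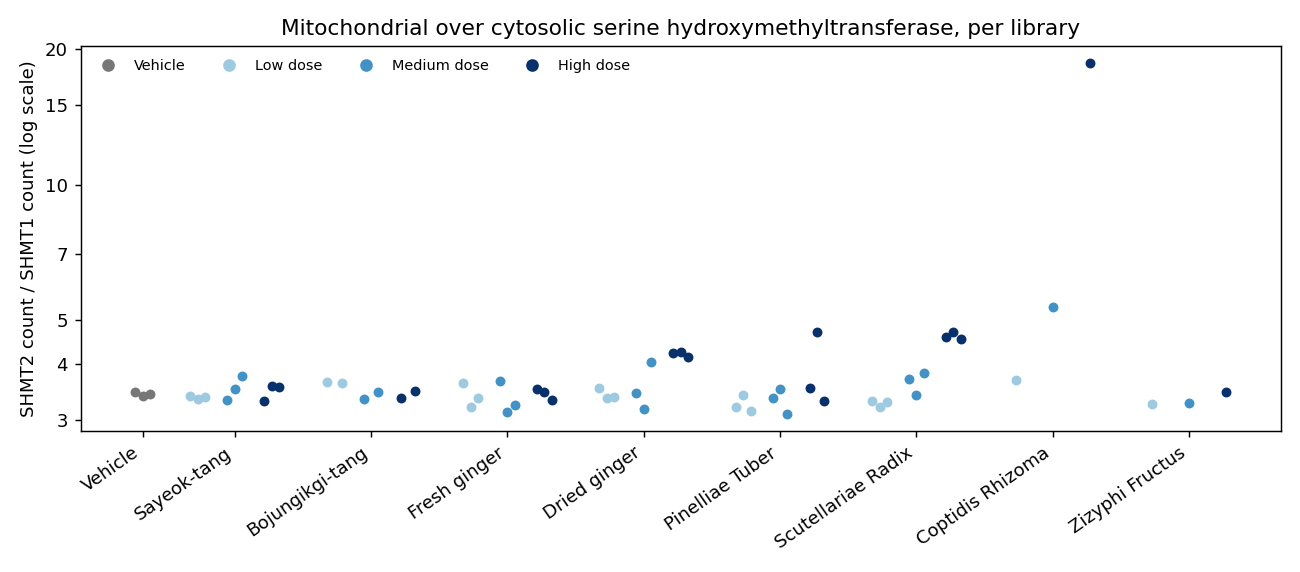
Each point is the ratio of SHMT2 to SHMT1 counts in 1 library, on a log scale, with vehicle and the extracts along the x axis and doses from low to high. The Coptidis Rhizoma high-dose library stands at 18.6, and the Scutellariae Radix and dried ginger high-dose libraries, at 4.15 to 4.70, lie above the vehicle libraries.

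Other targets of ATF4 were counted in the same groups. Of 29 such genes tested, outside the 8, 21 rose and 0 fell with Scutellariae Radix high dose against vehicle, where 23.6% of all genes were called, with a median of 0.51 against -0.023 over all genes. Among the smallest p-values were ASNS, asparagine synthetase (1.24 ± 0.06), TRIB3, a pseudokinase that damps the stress response (1.26 ± 0.07), SLC7A11, the cystine transporter (1.73 ± 0.12), and the transcription factor ATF3 (1.69 ± 0.14). With dried ginger high dose 19 rose and 1 fell, where 13.1% of all genes were called, with a median of 0.38 against -0.013, among them ASNS (1.11 ± 0.06), SLC1A4, a neutral amino acid transporter (0.85 ± 0.07), SLC7A11 (1.29 ± 0.12) and CHAC1, which degrades glutathione (1.57 ± 0.16). With Scutellariae Radix medium dose 12 rose and 0 fell (9.53% of all genes called), with a median of 0.20 against -0.016. With fresh ginger high dose 2 rose and 1 fell (6.36% of all genes called), with a median of -0.03. With Pinelliae Tuber high dose, where none of the 8 genes was called, 4 rose and 5 fell (5.12% of all genes called), with a median of 0.13 against 0.014. Among them were SLC1A4 (0.39 ± 0.07) and the stress-induced DDIT4 (-0.47 ± 0.10). Replicate 2 of that group, which stands apart, is included in these values.

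High against low dose, inside a code set, 21 of the 29 rose and 0 fell with Scutellariae Radix (median 0.52, 22.5% of all genes called). With dried ginger 18 rose and 0 fell (median 0.42, 4.34%). With fresh ginger 0 were called (0.489%), and with Pinelliae Tuber 0 rose and 2 fell (1.78%). Between the gingers at the high dose 0 of the 29 rose and 17 fell in fresh relative to dried ginger, with a median of -0.41 against 0.006 over all genes. Of all genes 2.26% were called there. In the Coptidis Rhizoma libraries 1, 14 and 24 of the 29 were above 1 on the log2 scale at the low, medium and high dose, with medians of 0.15, 0.99 and 2.67. Past 1 in size at these doses were 0.597%, 1.38% and 12.3% of all genes. ASNS was at 0.69, 2.29 and 3.78, TRIB3 at 0.28, 1.62 and 3.52, and CHAC1 at 1.05, 3.32 and 4.93. ATF4 itself had 280 to 302 CPM with Scutellariae Radix high dose and 260 to 281 CPM with dried ginger high dose, against 242 to 272 CPM in vehicle (0.19 ± 0.09 and 0.08 ± 0.09, edgeR adjusted p = 0.105 and 0.56). With Coptidis Rhizoma it had 254, 440 and 431 CPM from low to high dose. Of the other regulators with known links to these genes, the histone demethylase KDM4C rose with Scutellariae Radix high dose (0.25 ± 0.07) and dried ginger high dose (0.28 ± 0.07), and MYC did not pass the test in either (0.05 ± 0.14 and 0.03 ± 0.14). In the Zizyphi Fructus libraries KDM4C was at 0.30, 0.29 and 0.25 from low to high dose. With Coptidis Rhizoma it was at -0.05, 0.22 and 0.31. NFE2L2, which encodes NRF2, rose with Scutellariae Radix high dose (0.18 ± 0.06, edgeR adjusted p = 0.0261) and was at -0.05 ± 0.06 with dried ginger high dose (adjusted p = 0.607). High against low dose, 1 of these 4 regulators rose with Scutellariae Radix, where 22.5% of all genes were called. With dried ginger 0 of the 4 were called in that comparison, where 4.34% of all genes were.

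**Figure D5:**
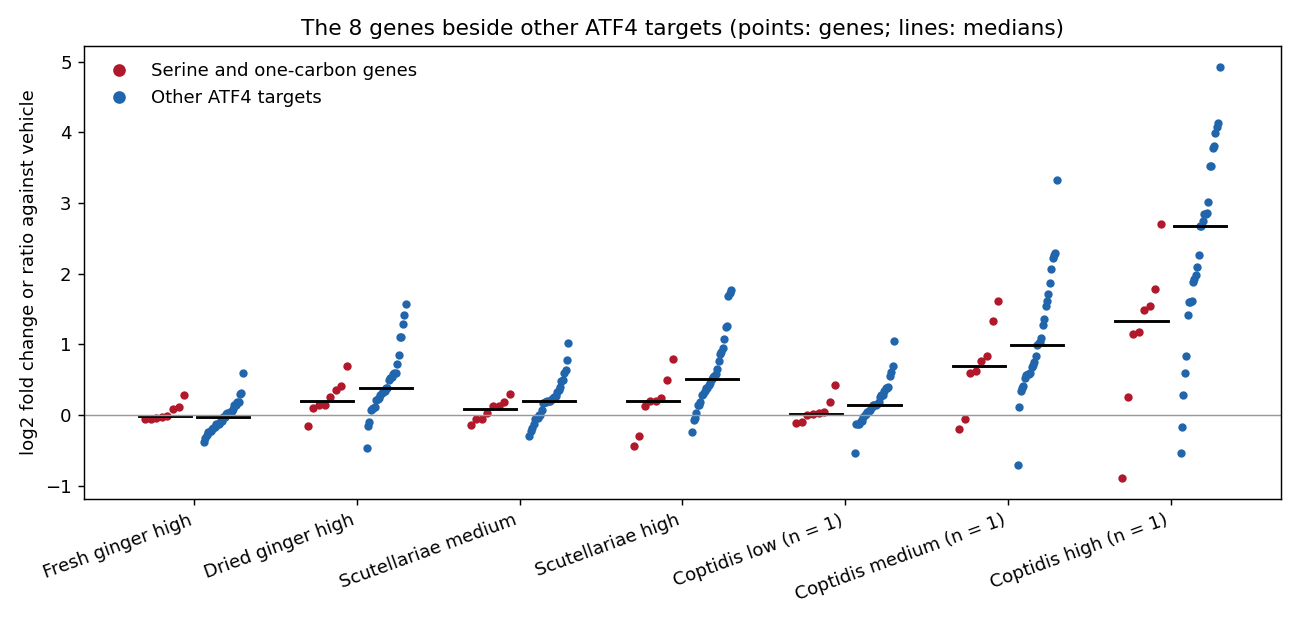
Points are log2 fold changes, or log2 ratios where a dose has 1 library, of the 8 genes in red and of 29 other ATF4 targets in blue against vehicle, and black lines are medians. The blue median is 0.51 with Scutellariae Radix high dose, 0.38 with dried ginger high dose, -0.03 with fresh ginger high dose and 2.67 in the Coptidis Rhizoma high-dose library.

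Neighbouring parts of folate metabolism were mixed in direction. Of 17 folate enzymes and transporters tested, 2 rose and 4 fell with Scutellariae Radix high dose (median -0.02), where 23.6% of all genes were called. They include SFXN1, the mitochondrial serine carrier, which rose (0.32 ± 0.07). ALDH1L1, the cytosolic counterpart of ALDH1L2 (-0.74 ± 0.14), and the folate receptor FOLR1 (-1.33 ± 0.27) fell. With dried ginger high dose 0 rose and 1, FOLR1, fell (-1.21 ± 0.27), a smaller share than the 13.1% of all genes. High against low dose, 0 of the 17 were called with dried ginger (4.34% of all genes). With Scutellariae Radix 2 rose and 4 fell in that comparison (22.5%). In the Coptidis Rhizoma high-dose library 0 of the 17 were above 1 and 3 below -1: TYMS, thymidylate synthase (-1.64), SLC19A1, the reduced folate carrier (-1.88), and MTHFD1, the cytosolic trifunctional enzyme (-1.08). Past 1 in size, in either direction, were 12.3% of all genes in that library.

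Of 10 purine synthesis genes, 5 rose and 0 fell with Scutellariae Radix high dose (median 0.14), among them PAICS (0.17 ± 0.04) and GMPS (0.16 ± 0.04). With fresh ginger high dose 5 rose and 0 fell (median 0.18), and with dried ginger high dose 3 rose and 0 fell (median 0.07), GMPS among them in both (0.21 ± 0.04 and 0.19 ± 0.04). In the Coptidis Rhizoma high-dose library the median was -0.44, with PFAS at -1.11. Over all genes 23.6% were called with Scutellariae Radix, 6.36% with fresh ginger and 13.1% with dried ginger at the high dose. High against low dose, inside a code set, 0 of the 10 were called with fresh ginger (0.489% of all genes) and 0 with dried ginger (4.34%). With Scutellariae Radix 2 rose and 0 fell in that comparison (22.5%). Of 11 genes of glycine and serine use, 3 rose and 0 fell with Scutellariae Radix high dose and 2 rose and 2 fell with dried ginger high dose. PTDSS1, phosphatidylserine synthase, rose in both (0.35 ± 0.05 and 0.26 ± 0.05). Of 6 genes of the methionine cycle and transsulfuration, 2 rose with Scutellariae Radix high dose and 1 with dried ginger high dose, MAT2A, which makes S-adenosylmethionine, in both (0.22 ± 0.07 and 0.27 ± 0.07). The counts of the glycine, serine and methionine genes are near the shares called over all genes, except that the dried ginger glycine and serine count is above its share. High against low dose, 2 of the 6 methionine cycle and transsulfuration genes rose with Scutellariae Radix and 0 were called with dried ginger. In that comparison 2 rose and 2 fell of the 11 glycine and serine genes with Scutellariae Radix, and 1 rose with dried ginger. CTH, the cystathionine lyase of cysteine synthesis, was at 0.20, 1.13 and 3.16 in the Coptidis Rhizoma libraries from low to high dose.

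Within the 54 libraries of the replicated groups, with the mean of each code set removed from log2 CPM, PSAT1 and MTHFD2 had a Pearson r of 0.88, PSAT1 and MTHFD1L of 0.82 and MTHFD2 and MTHFD1L of 0.80. PHGDH and PSAT1 had an r of 0.65, and PSAT1 and SHMT1 of -0.53. SHMT2 and MTHFD2 had an r of -0.15, but of 0.38 in the 51 libraries left without the 3 that stand apart, where PSAT1 and SHMT1 had -0.73. The points share groups, treatments and library composition, so these are descriptions. The 8 genes most like the mean standardised profile of the members over the 54 libraries were GLA (r = 0.852), BEST1 (0.848), TXN (0.845), MGST1 (0.844), SLC3A2 (0.841), CD59 (0.827), NQO1 (0.818) and SSR3 (0.816).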

How the data were processed

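RNA-seq of 60 HT29 libraries was analysed from the deposited table of RSEM expected counts per gene. Per the submitters' processing notes, the tools named were RSEM 1.3.3, STAR 2.7.3a, FastQC 0.11.9 and Trim Galore 0.6.5, with the human build GRCh38 (hg38). Neither an annotation release nor a strand setting was stated. Another 210 columns belong to no library described here and were not used. Groups and doses came from the labels, which give vehicle as 0.1% DMSO, whereas the series text gives 2%.

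Expected counts were rounded to whole numbers, since 90.0 to 92.1% of them per library were whole as deposited by the authors. CPM is the count over the library total. The 54 libraries of the 19 replicated groups were fitted together with edgeR 4.0.16 in R 4.3.3 (filter on low counts, TMM scaling, quasi-likelihood F test, 16763 genes, 35 residual degrees of freedom), with Benjamini-Hochberg adjustment over all genes tested and a threshold of 0.05. The SE is the log2 fold change divided by the square root of F. Sharing the estimate of spread matters: fits with only the libraries compared call fewer or more genes, as given with the sensitivity values. Single-library doses were set against the vehicle mean as log2(CPM + 0.5), with exact Poisson intervals that cover counting error only. Their 3 doses were also fitted as 1 group against vehicle. DESeq2 1.42.0, other scaling, no filter, replicate numbers as a block and single libraries left out were alternatives. Replicate numbers did not pair the samples in any comparison. Scripts were tested on simulated data, and Python 3.11.15 was used for summaries.

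The members, lists and motifs were chosen with earlier results of these data known. Of the 8 members the text gives those called in a comparison and some that were not, so not all 8 are named in each. From each list the text gives counts and at most 4 genes with the smallest p, in the single libraries genes already named or those past 1 in size, chosen after their values were seen. The values of 1 list gene are not reported here. Symbols and positions came from GENCODE 29 and promoter windows from RefSeq.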

Additional observations from a re-analysis of the deposited data

Results flagged for a closer look

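The effect of dose, high minus low, differed between paired extracts in 5 tests of the difference itself in edgeR's quasi-likelihood fit. In fresh relative to dried ginger the PSAT1 effect differed by -0.60 on the log2 scale. In Scutellariae Radix relative to Pinelliae Tuber it was higher by 0.85 for PSAT1, 0.62 for MTHFD2 and 0.33 for MTHFD1L, and it differed by -0.38 for SHMT1. Pinelliae Tuber high-dose replicate 2 and Scutellariae Radix low-dose replicate 3, which enter the last 4, stand apart in library composition. Their part in these differences was not tested, and the report gives the values without them.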

How the results depend on the processing

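Of the 32 counts of called genes from tests, DESeq2's size factors changed none, and no called value reversed its direction under any alternative run. Uncalled values did, among them, without the 3 libraries that stand apart, MTHFD2 and PSAT1 for Pinelliae Tuber high dose against low or vehicle, SHMT2 for Pinelliae Tuber high dose against vehicle, and SHMT2 for the Scutellariae Radix and Pinelliae Tuber dose effects (0.17, against -0.13). Replicate numbers as a block (the pairing check found no paired comparison) left 6 calls for Scutellariae Radix high dose against vehicle and 3 for dried ginger high dose. A block within code sets gave 4 for dried ginger high against low, 2 for Scutellariae Radix high against low, 3 for Scutellariae Radix against Pinelliae Tuber, and 2 and 1 for the differences in dose effect between the gingers and between Scutellariae Radix and Pinelliae Tuber. Fits with only the libraries compared gave 2 for Scutellariae Radix medium dose, 1 for Bojungikgi-tang high against low, 5 for dried ginger high against low, 1 for Scutellariae Radix high against low, 5 between the gingers, 0 for Scutellariae Radix against Pinelliae Tuber, and 3 and 0 for the differences in dose effect. Without the 3 libraries that stand apart the counts were 5 for dried ginger high dose, 2 for Scutellariae Radix medium dose, 5 for dried ginger high against low, 5 between the gingers and 2 for the gingers' dose effects. With no filter on low counts 6 called values over all comparisons lost their call, and Scutellariae Radix high dose against vehicle gave 3. Not every change in a count is listed here. DESeq2 gave 2 for the gingers' dose effects and 1 for Coptidis Rhizoma. The cause of these changes was not tested.

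Leaving out single libraries gave 0 to 2 calls for Pinelliae Tuber high dose, 0 to 1 for Scutellariae Radix low dose, 0 to 1 for its medium dose, 3 to 5 for its high dose, 0 to 3 for Pinelliae Tuber high against low, 1 to 2 for the gingers' dose effects and 0 to 1 for Zizyphi Fructus. The lowest, 3 for Scutellariae Radix high dose, came without vehicle replicate 2. ALDH1L2, at 0.276 to 1.05 CPM, is limited by depth.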
